A study of Mus musculus with 18 samples.

Results

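The bodies of the longest genes of the mouse were examined for 4 chromatin targets in cardiomyocyte-enriched cells with and without the histone methyltransferase G9a. Members were the listed regions that lay wholly inside the span of a protein-coding gene of 500 kb or more on chromosomes 1 to 19, at least 5 kb from either end of the span (RefSeq spans, GRCm38.p6, the build called mm10). Of 20665 protein-coding genes, 216 were this long, and 55 of them reached 1 Mb. Their bodies held 39201 of 621134 listed regions for G9a, 56895 of 716658 for H3K9me2, 33670 of 504986 for H3K27me3 and 38528 of 534606 for Mef2c. These are 6.31%, 7.94%, 6.67% and 7.21% of the lists, while the merged bodies cover 178 Mb, or 7.23% of the length of these chromosomes. A few regions fell in more than 1 giant, because the spans of 4 pairs overlap: 344, 452, 329 and 309 regions in the order of the targets above.

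The libraries came from chromatin immunoprecipitation and sequencing (ChIP-seq) of cardiomyocyte-enriched populations of C57BL/6J mice. The KO group carried G9a flox/flox and alphaMHC-MerCreMer +/-, and the Cre group carried alphaMHC-MerCreMer +/- alone, so both groups hold the same transgene, in which the promoter of the cardiac myosin heavy chain gene Myh6 drives an inducible Cre recombinase. Each target had 2 KO and 2 Cre libraries, called biological replicates in the series text, and 1 input library of each genotype was not used here. The labels give no age, sex, dosing or time after recombination.

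What limits this model is that the Cre acts in cardiomyocytes, while an enriched population can still hold other heart cells that keep G9a. In such bulk material, fewer cells of a type and less signal per cell cannot be told apart. No RNA was measured, so the labelled cell type could not be checked against expressed markers. Ryr2, the calcium release channel of the cardiomyocyte sarcoplasmic reticulum, was among the 8 of 216 giants with the fewest listed H3K27me3 regions per Mb. This is no check of the cell type, because the lists hold only regions that differed between the genotypes. Ryr2 also had the fewest regions per Mb for the other targets, and the heart giant Fgf12 had 359 H3K27me3 regions per Mb.

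G9a is a histone methyltransferase whose dimethyl mark, H3K9me2, lies in broad stretches over silent genes and the spaces between genes. H3K27me3 is placed by Polycomb and marks developmental genes kept silent in a given cell type. Mef2c is a MADS-box transcription factor of muscle and neurons. Giant genes owe their length to introns, and many code for adhesion proteins, receptors and scaffolds of the synapse, while a smaller number code for channels, junction proteins and signalling enzymes that cardiomyocytes use.

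The starts that lie deep inside a giant show where the listed regions meet a promoter, and 6 of them are printed because their H3K27me3 regions moved in opposite directions. The sequences are 300-base RefSeq windows (GRCm38.p6) from 250 bases before to 50 bases after a start, with every CG in capitals. The first 3 lie under H3K27me3 regions that were higher in KO, and the last 3 under H3K27me3 regions that were lower. They were chosen after their values were seen.
Fgf12, internal start, chr16:28446026-28446325, minus strand: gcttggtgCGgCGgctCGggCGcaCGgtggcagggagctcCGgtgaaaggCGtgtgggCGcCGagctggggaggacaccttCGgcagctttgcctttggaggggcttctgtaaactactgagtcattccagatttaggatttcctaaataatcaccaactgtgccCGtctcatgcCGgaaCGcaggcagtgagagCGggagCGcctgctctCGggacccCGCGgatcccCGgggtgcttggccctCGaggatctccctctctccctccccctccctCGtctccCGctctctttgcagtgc
Dab1, internal start, chr4:104367288-104367587, plus strand: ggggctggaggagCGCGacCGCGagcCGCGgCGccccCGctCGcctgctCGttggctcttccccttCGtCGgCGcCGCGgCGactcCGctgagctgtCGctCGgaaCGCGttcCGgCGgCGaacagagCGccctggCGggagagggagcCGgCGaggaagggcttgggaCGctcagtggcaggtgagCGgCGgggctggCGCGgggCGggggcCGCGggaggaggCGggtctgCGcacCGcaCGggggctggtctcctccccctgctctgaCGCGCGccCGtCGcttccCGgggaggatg
Celf2, internal start, chr2:6871986-6872285, minus strand: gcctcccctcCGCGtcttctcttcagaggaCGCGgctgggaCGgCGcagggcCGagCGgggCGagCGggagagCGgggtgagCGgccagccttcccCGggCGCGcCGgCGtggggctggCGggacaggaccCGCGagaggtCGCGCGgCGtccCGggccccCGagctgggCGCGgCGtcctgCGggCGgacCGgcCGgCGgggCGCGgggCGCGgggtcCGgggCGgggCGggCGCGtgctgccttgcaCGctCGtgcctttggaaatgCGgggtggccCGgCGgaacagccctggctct
Kcnip4, internal start, chr5:49285610-49285909, minus strand: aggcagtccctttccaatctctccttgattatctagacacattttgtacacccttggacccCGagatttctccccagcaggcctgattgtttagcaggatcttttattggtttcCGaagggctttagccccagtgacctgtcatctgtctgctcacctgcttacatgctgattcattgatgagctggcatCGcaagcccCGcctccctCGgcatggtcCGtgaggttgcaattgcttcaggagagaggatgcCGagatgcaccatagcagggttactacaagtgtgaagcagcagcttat
Nlgn1, internal start, chr3:26153937-26154236, minus strand: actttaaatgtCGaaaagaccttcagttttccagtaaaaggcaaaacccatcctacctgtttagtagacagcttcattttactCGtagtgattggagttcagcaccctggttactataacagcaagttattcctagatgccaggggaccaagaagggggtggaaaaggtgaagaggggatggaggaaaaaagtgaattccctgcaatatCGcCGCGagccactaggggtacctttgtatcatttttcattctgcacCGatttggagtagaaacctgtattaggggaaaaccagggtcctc
Cdh18, internal start, chr15:23036213-23036512, plus strand: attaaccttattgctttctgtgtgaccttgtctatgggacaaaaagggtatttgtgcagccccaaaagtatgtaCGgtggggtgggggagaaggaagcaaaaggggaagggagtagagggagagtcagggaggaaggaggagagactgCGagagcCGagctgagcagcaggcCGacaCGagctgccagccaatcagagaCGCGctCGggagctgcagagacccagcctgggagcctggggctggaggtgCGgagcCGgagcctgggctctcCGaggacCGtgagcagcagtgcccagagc

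The CG counts of these windows were 22 for Fgf12, 46 for Dab1 and 48 for Celf2, against 7 for Kcnip4, 6 for Nlgn1 and 12 for Cdh18. Over all 20085 start windows of protein-coding genes the median was 14, and over the 117 internal starts of giants it was 7. The MEF2 motif, searched on both strands, was in none of the 6 windows. It was in 2 of the 117 internal windows (1.71%) and in 1.68% of all start windows.

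MicroRNA genes also lie inside giant introns, and 6 mature sequences are printed because listed regions met their hairpins. Capitals mark the seed, bases 2 to 8 from the 5′ end. The coordinates are those of RefSeq in GRCm38.p6.
mmu-miR-346-5p, chr14:34894624-34894646, plus strand: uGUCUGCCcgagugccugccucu
mmu-miR-204-5p, chr19:22750610-22750631, plus strand: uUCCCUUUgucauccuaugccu
mmu-miR-218-5p, chr11:35616840-35616860, plus strand: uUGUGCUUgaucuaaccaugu
mmu-miR-153-3p, chr12:117250860-117250881, plus strand: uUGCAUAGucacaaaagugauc
mmu-miR-582-5p, chr13:109324753-109324774, plus strand: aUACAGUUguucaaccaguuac
mmu-miR-21b, chr3:29636768-29636790, plus strand: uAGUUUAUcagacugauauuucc

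No seed is shared by any 2 of the 6. The sequence of miR-218-5p is also made from a hairpin on chromosome 5 outside the giants.

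The deposited value of a library at a region has no stated scale, so it is called a value and not a count, and its depth is unknown. Values were summed over the listed regions of a gene body, and the ratio of the KO to the Cre sum is given as log2 (pseudocount 1). The authors listed regions because they differed, so stretches without a change have no value, and p-values from these lists are too small. Scaling the 4 libraries of a target to 1 median over all listed regions shifted log2 ratios by 0.33 (G9a), -0.30 (H3K9me2), 0.28 (H3K27me3) and 0.33 (Mef2c), so the sign of a ratio smaller than these shifts depends on the scale. These regions were listed for differing, and 61.5% were lower in KO for G9a and 39.7% for H3K9me2. Scaling therefore takes out much of any net change by construction, and a scaled call is relative to the list. Neither scale could be checked.

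In giant bodies the direction of the listed regions was close to that of the lists as a whole. For G9a, 24541 of 39201 regions were lower in KO (62.6%), against 61.5% of all listed regions. For H3K27me3, 65.4% were lower against 63.3%, and for Mef2c 61.9% against 61.7%. H3K9me2 went the other way, with 40.8% lower in giants and 39.7% in all. A share this near the background is not a result about giants, and it did not depend on scaling, under which the 4 shares were 62.6%, 65.3%, 61.9% and 40.8%.

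Summed over whole bodies, the KO and Cre libraries separated in most giants. For G9a both KO sums lay below both Cre sums in 159 of 216 giants, against 36.1% of all 11028 gene bodies with a listed region, and above them in 2 (13.6% of all). For H3K27me3 the numbers were 169 lower (50.5% of all 7408) and 9 higher (15.9%). For Mef2c they were 171 lower (42.8% of all 11171) and 0 higher (13.7%). For H3K9me2, 9 giants were lower (13.5% of all 11250) and 120 higher (40.4%). Giants hold a median of 165 G9a regions each and an ordinary gene body 6, so a sum over a giant averages over many more regions, and the part of this in the shares was not tested. A direction read from these sums is that of the deposited scale: after scaling, 90 of 216 giants had a limma difference below 0 for G9a instead of 202, 148 instead of 191 for H3K27me3, 98 instead of 207 for Mef2c, and 145 instead of 31 for H3K9me2.

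The combination of G9a, H3K27me3 and Mef2c sums below and H3K9me2 sums above those of Cre was met in 82 giants. In 44 more, the H3K9me2 sums overlapped and the other 3 targets were lower. All 4 targets were lower in 7 giants, named here with their H3K9me2 log2 ratio: Asic2 (-0.03), Erc2 (-0.13), Cacna2d3 (-0.14), Csmd2 (-0.15), Dlgap2 (-0.03), Kirrel3 (-0.28) and Clstn2 (-0.19). Of the 7, Asic2 (an acid-sensing channel), Erc2 (an active zone scaffold), Cacna2d3 (a calcium channel subunit) and Csmd2 were in the synaptic list, which holds 68 of the 216 giants. No giant was higher for all 4. These patterns were not counted over all gene bodies, so the number of giants in each has no background. Their directions are those of the deposited scale, and many change with scaling, as given above.

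A fit across all gene bodies (limma, Benjamini-Hochberg adjustment at 0.05) called 0 giants for G9a, where 0.0% of all gene bodies were called lower and 0.0% higher. At an unadjusted p under 0.05 it had 48 giants (22.2%), all lower in KO, against 11.3% of all gene bodies, and after scaling 4 (1 lower, 3 higher) against 8.14%. Without KO value 1 it called 14 giants (6.48%) and 8.61% of all gene bodies. At single regions 0 members passed for any target, while 2635 G9a, 6217 H3K9me2, 5261 H3K27me3 and 4307 Mef2c members had an unadjusted p under 0.05. These are 6.72%, 10.9%, 15.6% and 11.2% of the members, against 6.5%, 11.1%, 15.3% and 11.3% of all regions. Without KO value 1, 3899 G9a members passed limma (9.95%), against 10.4% of all regions.

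The giants with the lowest G9a ratio were 2 neuronal genes and an enzyme. Erc2, a scaffold of the presynaptic active zone (chr14:27622275-28478537), summed to 24076 and 23839 in Cre against 14856 and 14222 in KO, a log2 ratio of -0.72 (limma SE 0.18, adjusted p = 0.439, and -0.40 after scaling), with 145 of its 191 regions lower. St6galnac3, a sialyltransferase, had a log2 ratio of -0.70, and Sorcs1, a sorting receptor, -0.68. At the other end stood Sox6, a transcription factor of muscle and cartilage (chr7:115470872-116040776), with 2904 and 2925 in Cre against 3404 and 4381 in KO, a log2 ratio of 0.42 and an adjusted p of 0.477 by limma. Cpq, a peptidase, had 0.39 and Rgs6, a regulator of G-protein signalling in the heart and brain, 0.23. The KO and Cre sums of Sox6 did not overlap, but the KO sums differed from each other by more than the Cre sums did.

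H3K9me2 rose in 28 giants (13.0%) by limma and fell in 0, against 3.09% of all gene bodies called higher and 0.169% lower. Giants held a median of 238 H3K9me2 regions and all gene bodies 7, and the part of this in the calls was not tested. Skint5, a member of the Skint family of skin and thymus (chr4:113477891-113999503), went from 21940 and 17427 in Cre to 30674 and 33687 in KO, a log2 ratio of 0.71 (SE 0.14, limma adjusted p = 0.000593). Both KO sums were above both Cre sums, and 159 of its 212 regions were higher. Lingo2, a leucine-rich repeat protein of synapses, had 54354 and 46353 in Cre against 72630 and 73703 in KO, with a log2 ratio of 0.54 (limma adjusted p = 0.00561). Grik2, a kainate glutamate receptor subunit, and Galnt13, a glycosyltransferase, each had 0.57. After scaling limma called 60 giants (27.8%, against 5.04% of all gene bodies), 12 higher and 48 lower. The 12 were all among the 28: Skint5, Lingo2, Grik2, Sntg1, Galnt13, Fstl5, Csmd3, Nrg3, Dpp10, Cdh18, Zfp804b and Lrp1b. Their scaled differences ran from 0.16 for Dpp10 to 0.42 for Skint5. Without either Cre value there were more calls in giants and in all gene bodies. The calls in giants were lost without KO value 1 or without KO value 2.

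The lowest H3K9me2 ratios belonged to Kirrel3, an adhesion molecule (22748 and 20316 in Cre, 17400 and 18053 in KO, log2 ratio -0.28), to Pard3, a cell polarity protein (-0.19), and to Clstn2, a calsyntenin (-0.19). None was called on the deposited scale (limma adjusted p = 0.231, 0.467 and 0.433). After scaling all 3 were called lower by limma, with adjusted p = 1.4e-05, 0.0021 and 0.000103.

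H3K27me3 fell in 126 giants (58.3%) and rose in 2 by limma, against 16.9% of all gene bodies called lower and 1.09% called higher. Here giants held a median of 134 regions and all gene bodies 5, and the part of this in the calls was not tested. The 2 giants with the smallest p were Nell1, a secreted EGF-domain protein, and Hpse2, an inactive relative of heparanase. Nell1 (chr7:49975350-50863289) had 46813 and 47307 in Cre against 29396 and 31336 in KO, a log2 ratio of -0.63 (SE 0.08, limma adjusted p = 0.00102), with 206 of 276 regions lower. Hpse2 had 43318 and 43851 in Cre against 26429 and 29410 in KO (-0.64). In both genes the gap between the groups was several times the gap within them. The lowest ratio of all was that of Sugct, a mitochondrial CoA-transferase (18306 and 18749 in Cre, 10548 and 11787 in KO, log2 ratio -0.73, limma adjusted p = 0.00131). Csmd1, Sox5, Cadps2, Dlgap2, Ctnna2, Nrxn3 and Sorcs1, with ratios of -0.52, -0.49, -0.58, -0.48, -0.64, -0.51 and -0.57, completed the 10 smallest p-values. With scaled values limma called 0 of the 216 giants, Nell1 having a difference of -0.35 (adjusted p = 0.117), and without Cre value 1 or without Cre value 2 it also called 0.

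Among giants with at least 20 H3K27me3 regions, the highest ratios were those of Prkg1 (0.36), Ctnna3 (0.33) and Camta1 (0.25). Camta1, a calmodulin-binding transcription activator, had 17624 and 17167 in Cre against 20815 and 20635 in KO (limma adjusted p = 0.0692, and 0.53 with adjusted p = 0.052 after scaling). Its groups did not overlap, and 58 of its 140 regions were lower.

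Mef2c signal fell in 53 giants (24.5%) and rose in 0 by limma, against 2.95% of all gene bodies called lower and 0.116% called higher. The median number of Mef2c regions was 162 in giants and 6 in all gene bodies, and the part of this in the calls was not tested. Car10, a carbonic anhydrase relative expressed in brain (chr11:93096805-93601751), had the lowest ratio, with 16480 and 16170 in Cre against 9323 and 10341 in KO (log2 ratio -0.73, SE 0.12, limma adjusted p = 0.00726). Adarb2, an RNA-editing enzyme relative of brain, had -0.67 and Nell1 -0.66. Nell1, Csmd1 and St6galnac3 (-0.66, -0.50 and -0.64) were among the 10 smallest p-values for Mef2c, with Tmem132d, Tenm4, Alk, Nlgn1 and Dlgap1 at -0.57, -0.53, -0.51, -0.57 and -0.49. At the high end were Nfia, a nuclear factor I protein (7146 and 4930 in Cre, 6385 and 7919 in KO, log2 ratio 0.24), Ryr2 (0.16) and Camta1 (0.14), whose groups overlapped. With scaled values limma called 0 of the 216 giants, Car10 having -0.40 (adjusted p = 0.0528). The calls were lost without Cre value 1 or without Cre value 2. Without either KO value there were more calls in giants and in all gene bodies.

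**Figure D1:**
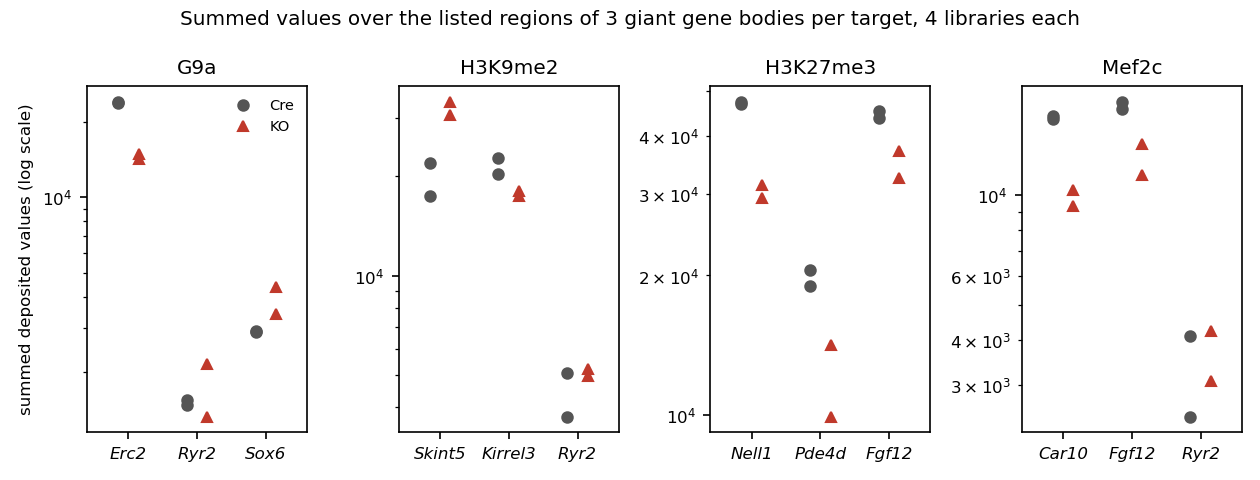
Summed deposited values (log axis) over the listed regions of 3 giant gene bodies per target, with circles for the 2 Cre and triangles for the 2 KO libraries. The groups separate for Erc2, Sox6, Skint5, Kirrel3, Nell1, Pde4d, Fgf12 and Car10 and overlap for Ryr2. The positions are on the deposited scale, and scaling moves the KO points up against the Cre points by 0.33 (G9a), 0.28 (H3K27me3) and 0.33 (Mef2c) and down by 0.30 (H3K9me2) in log2 units.

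Heart-expressed and synaptic giants were then set side by side. The heart list had 41 genes, of which 16 were giants, and the synaptic list 92, of which 68 were giants. The remaining 132 giants were in neither. Listed regions were sparser in the heart giants for all 4 targets. The median density was 119 G9a regions per Mb in heart giants and 239 in synaptic giants, 239 and 344 for H3K9me2, and 148 and 230 for Mef2c. For H3K27me3 it was 15.3 against 185, and the regions covered a median of 1.01% of a heart giant and 13.5% of a synaptic giant. The same lists among genes of 100 to 500 kb gave 14.5 and 204 H3K27me3 regions per Mb, so the difference was not particular to giants.

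**Figure D2:**
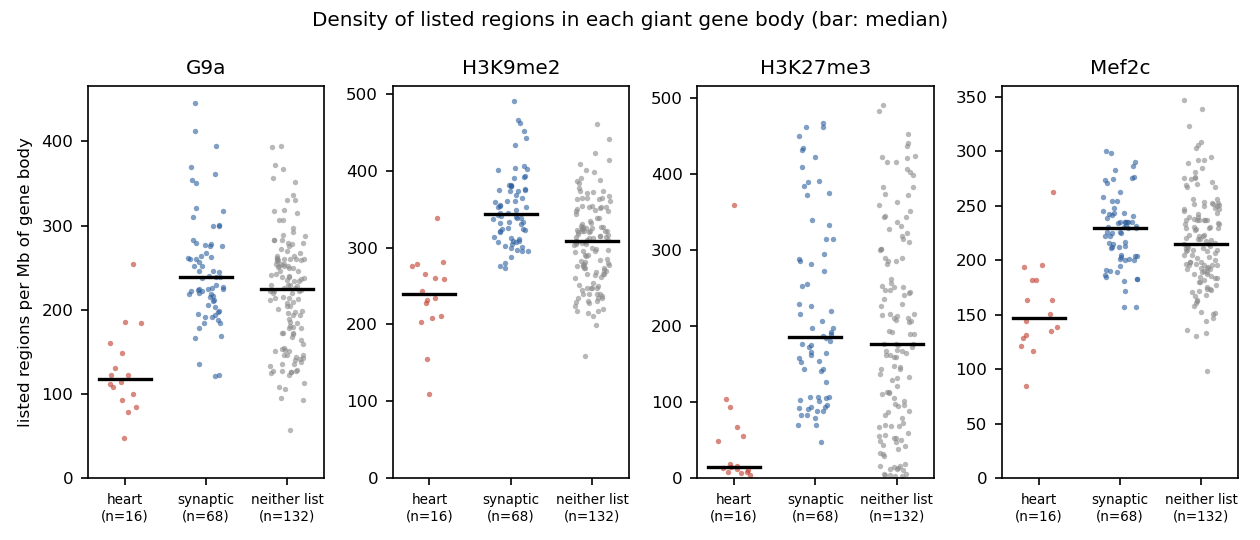
Listed regions per Mb of body for each of the 216 giants (points) in the heart list, the synaptic list and neither, 1 panel per target, with bars at the median. The heart medians lie lower in each panel, at of 119, 239, 15.3 and 148 regions per Mb against 239, 344, 185 and 230 for synaptic giants.

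Ryr2 (chr13:11553099-12106945) had the lowest density of all 216 giants for 3 targets: 47.8 G9a, 110 H3K9me2 and 84.6 Mef2c regions per Mb. It had only 4 H3K27me3 regions (7.36 per Mb). At the other end stood Csmd2 with 446 G9a, Cntnap5c with 491 H3K9me2, St6galnac3 with 491 H3K27me3 and Tmem132d with 347 Mef2c regions per Mb. Zbtb20, a zinc finger repressor, had the fewest H3K27me3 regions per Mb (2.67), and Lpp (3.39) and Ptprk (3.90) were also among the lowest.

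The KO to Cre ratios also differed between the lists. The median log2 ratio of heart giants was -0.06 (G9a), 0.13 (H3K9me2), 0.07 (H3K27me3) and -0.16 (Mef2c). That of synaptic giants was -0.35, 0.29, -0.40 and -0.34, and that of all giants -0.30, 0.20, -0.37 and -0.31, beside -0.23, 0.22, -0.27 and -0.23 over all gene bodies. The same lists among genes of 100 to 500 kb had medians of 0.01 and -0.33 (G9a), 0.13 and 0.31 (H3K9me2), 0.25 and -0.39 (H3K27me3) and -0.01 and -0.40 (Mef2c), so the difference was not particular to giants. In giants, heart minus synaptic was 0.29, -0.16, 0.47 and 0.18. Scaling left these differences at 0.30, -0.16, 0.47 and 0.18, although it moved the medians themselves across 0 for some targets.

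The difference between the lists was set against the libraries. Each KO value taken with each Cre value gave 0.10 to 0.39 (G9a), -0.31 to -0.10 (H3K9me2), 0.43 to 0.65 (H3K27me3) and 0.05 to 0.24 (Mef2c). The same measure between the 2 KO libraries was 0.25 (G9a), 0.12 (H3K9me2), -0.03 (H3K27me3) and 0.07 (Mef2c), and between the 2 Cre libraries 0.03, 0.00, -0.13 and -0.09. For H3K27me3 all 4 pairs exceeded what separated libraries of 1 genotype, and for the other 3 targets the pair nearest 0 did not. With 2 values against 2 the smallest exact two-sided p is 0.333, so none of these differences can pass an exact test. The sparseness moved with it: across the 216 giants the ratio and the density had Pearson's r = -0.69 (G9a), 0.43 (H3K9me2), -0.47 (H3K27me3) and -0.57 (Mef2c) (Spearman's rho -0.67, 0.45, -0.50 and -0.52), a description over genes that share their libraries, and its part in the difference was not tested.

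**Figure D3:**
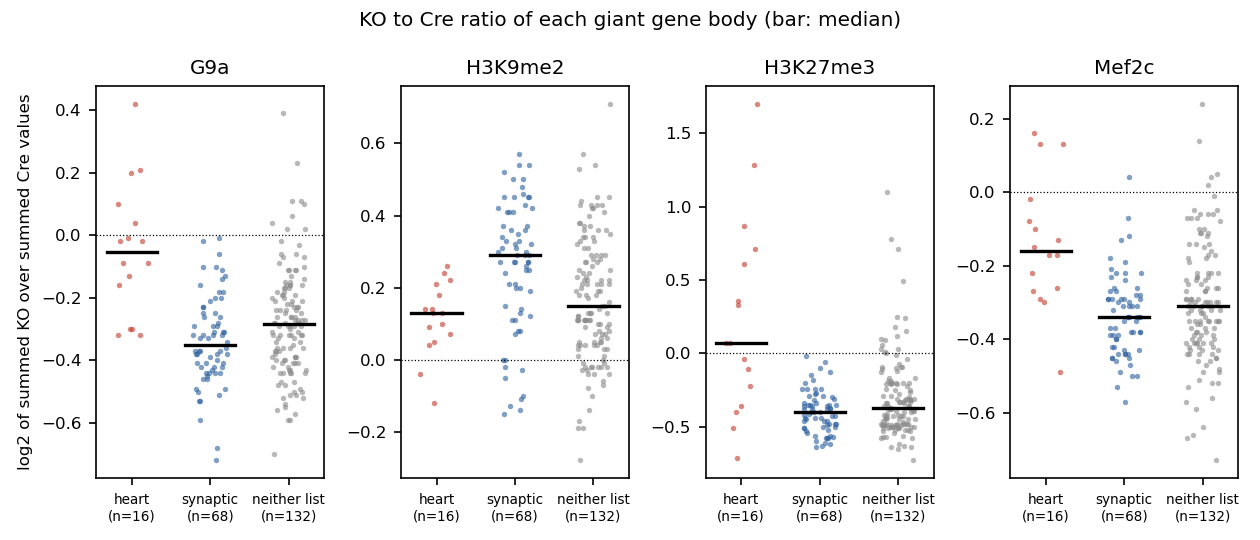
Log2 of the summed KO over the summed Cre values for each of the 216 giants (points) by list, with bars at the median and a dotted line at 0, 1 panel per target. The medians of heart giants lie nearer 0 than those of synaptic giants on the deposited scale, at -0.06, 0.13, 0.07 and -0.16 against -0.35, 0.29, -0.40 and -0.34. The zero line is that of the deposited scale and moves by 0.33, -0.30, 0.28 and 0.33 with scaling, while heart minus synaptic becomes 0.30, -0.16, 0.47 and 0.18.

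Among the calcium handling and channel genes of the heart, Ryr2 had overlapping groups for all 4 targets. Its G9a sums were 1478 and 1548 in Cre against 1328 and 2148 in KO, and its H3K9me2 sums 5066 and 3736 in Cre against 4954 and 5227 in KO. Its log2 ratios were 0.20 (G9a), 0.21 (H3K9me2), -0.11 (H3K27me3) and 0.16 (Mef2c), with limma adjusted p from 0.469 to 0.855. Cacna1c, the pore of the L-type calcium channel (chr6:118587240-119197384), had -0.13, 0.05, 0.61 and 0.13, the third from 7 regions with sums of 852 and 385 in Cre against 762 and 1124 in KO. Its groups overlapped for every target.

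The anchoring and junction genes were not called for most targets. Ank2, an ankyrin that places channels and exchangers at the membrane (chr3:126921607-127500347), had -0.01, 0.26, 0.87 and 0.13. Its 9 H3K27me3 regions rose by limma (SE 0.30, adjusted p = 0.0448), 8 of them being higher, and after scaling the difference was 1.19 with adjusted p = 0.0818. Ctnna3, the alpha-T-catenin of the intercalated disc, had 0.04, 0.14, 0.33 and -0.17 with overlapping groups throughout. Cdh13, a GPI-anchored cadherin that endothelial cells also carry, had -0.09, 0.07, 0.07 and -0.30, and its scaled H3K9me2 difference of -0.23 was called lower by limma (adjusted p = 0.0265).

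Lama2, a laminin chain of the muscle basement membrane (chr10:26981285-27617191), had only 5 H3K27me3 regions. Sgcd, the delta-sarcoglycan of the dystrophin complex (chr11:46971077-47989451), held 105, which summed to 15172 and 13717 in Cre against 9193 and 11026 in KO. The log2 ratio was -0.51 (SE 0.12, limma adjusted p = 0.00727), and -0.24 with adjusted p = 0.304 after scaling. Its G9a ratio was -0.32 and its Mef2c ratio -0.29, both with KO sums below the Cre sums, and neither passed limma.

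The lowest H3K27me3 ratio among heart giants was that of a signalling gene. Pde4d, a cAMP phosphodiesterase (chr13:108654177-109955969), had H3K27me3 sums of 20559 and 19004 in Cre against 9934 and 14186 in KO, a log2 ratio of -0.71 (SE 0.13, limma adjusted p = 0.00243, and -0.45 with adjusted p = 0.122 after scaling). Of its 121 regions 90 were lower, while its G9a sums overlapped (11853 and 11906 in Cre, 10423 and 12945 in KO, log2 ratio -0.02). Both KO values of H3K27me3 were below both Cre values, and they differed from each other more than the Cre values did. Prkg1, the cGMP-dependent kinase, had -0.16, -0.04, 0.36 and -0.10, and Erbb4, the neuregulin receptor, 0.10, 0.22, 0.07 and -0.27. Neither was called on the deposited scale, but after scaling limma called Prkg1 lower for H3K9me2 (-0.33, adjusted p = 0.000977).

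Fgf12, a non-secreted FGF relative that binds cardiac sodium channels, stood apart from the other heart giants (chr16:28157783-28753243). It held 210 H3K27me3 regions, or 359 per Mb, against a median of 15.3 in the list. Its H3K27me3 sums were 43715 and 45249 in Cre against 32407 and 37129 in KO (log2 ratio -0.36, SE 0.09, limma adjusted p = 0.0107). Its Mef2c sums were 18039 and 17241 in Cre against 11348 and 13820 in KO (-0.49, SE 0.12, adjusted p = 0.0364), the only heart giant called for Mef2c. Both calls were lost after scaling, with differences of -0.08 and -0.16. Its G9a ratio was -0.32 and its H3K9me2 ratio 0.24, with groups that did not overlap.

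The regulators of transcription and metabolism in the list completed it. Esrrg, a nuclear receptor of oxidative metabolism (chr1:187608510-188214885), had 5 H3K27me3 regions that summed to 163 and 165 in Cre against 376 and 423 in KO, a log2 ratio of 1.28 (SE 0.43, limma adjusted p = 0.0467, and 0.0879 after scaling). Ppargc1a, the PGC-1alpha coactivator of mitochondrial genes, had -0.30, -0.12, -0.04 and -0.13 (scaled H3K9me2 difference -0.41, limma adjusted p = 0.00194), and Hdac9, a class IIa deacetylase that binds Mef2 factors, -0.30, 0.14, -0.22 and -0.22. Sox6 had the highest G9a ratio of all giants with enough regions, given above, and 0.18, 0.71 and -0.02 for the other targets. Over the 16 heart giants, limma on the deposited scale called 3 lower for H3K27me3 (Pde4d, Sgcd and Fgf12), or 18.8%, against 16.9% of all gene bodies, which is near the background. It called 2 higher for H3K27me3 (Ank2 and Esrrg, 12.5%, against 1.09% of all gene bodies). For Mef2c it called 1 lower (6.25%, against 2.95%), and for G9a and H3K9me2 it called 0. After scaling it called 0 for G9a, H3K27me3 and Mef2c. For H3K9me2 it then called 3 of the 16 lower, against 450 of all 11250 gene bodies.

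Among the 68 synaptic giants, limma on the deposited scale called 16 higher for H3K9me2 (23.5%), 49 lower for H3K27me3 (72.1%) and 21 lower for Mef2c (30.9%). Of all giants it called 13.0%, 58.3% and 24.5% in these directions, and of all gene bodies 3.09%, 16.9% and 2.95%. In synaptic giants it called 0 in the opposite directions and 0 for G9a. Synaptic giants held a median of 184 H3K27me3 regions and heart giants 18, and the part of this in the calls was not tested. After scaling limma called 0 synaptic giants for H3K27me3 and Mef2c. For H3K9me2 it called 8 higher, all among the 16, and 12 lower, against 117 higher and 450 lower of all 11250 gene bodies. Nrxn3, a presynaptic neurexin (chr12:88722701-90334935), had H3K27me3 sums of 69872 and 71036 in Cre against 47968 and 51247 in KO (-0.51, SE 0.07, limma adjusted p = 0.00131). Nlgn1, the neuroligin that neurexins bind, had 17946 and 19977 in Cre against 11769 and 13878 in KO (-0.56, adjusted p = 0.00324). In both genes the Cre sums were higher than the KO sums for G9a and Mef2c as well, with G9a log2 ratios of -0.41 and -0.32.

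Cntnap2, a neurexin relative at axons and 1 of the longest mouse genes (2241 kb), fell for H3K27me3 by limma (-0.50, adjusted p = 0.00166) and rose for H3K9me2 (85160 and 72704 in Cre, 99163 and 105095 in KO, 0.37, adjusted p = 0.0477). After scaling the H3K9me2 difference was 0.08 and was not called. Lsamp, a GPI-anchored adhesion protein, had -0.40, 0.30, -0.43 and -0.38 for G9a, H3K9me2, H3K27me3 and Mef2c. Ptprd, a receptor phosphatase and the longest of the 216 genes (2271 kb), had -0.16, 0.29, -0.24 and -0.07. Ptprd was not called by limma for any target, and its G9a and Mef2c sums overlapped.

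A channel partner and a receptor relative were among the H3K9me2 calls. Kcnip4, which binds Kv4 potassium channels, had H3K9me2 sums of 45485 and 38776 in Cre against 57271 and 57636 in KO (0.45, limma adjusted p = 0.0254). It was not called after scaling (adjusted p = 0.0695). Grm7, a metabotropic glutamate receptor, had 0.32 (adjusted p = 0.116), and Lrp1b, a lipoprotein receptor relative, 0.45 (adjusted p = 0.017, and 0.0268 after scaling).

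Dlg2, a postsynaptic scaffold, had -0.38, 0.27, -0.46 and -0.44 for G9a, H3K9me2, H3K27me3 and Mef2c, and Ctnnd2, the delta-catenin, -0.42, 0.12, -0.41 and -0.44. Csmd1 had -0.53, 0.27, -0.52 and -0.50, with 425 to 663 regions per target. Its relative Csmd3 had -0.14, 0.52, -0.24 and -0.23, so that the H3K9me2 ratio was larger in Csmd3 and the other 3 were nearer 0. Rbfox1, a splicing factor of neurons and muscle, had -0.10, 0.00, -0.15 and -0.28 and was not called for any target on the deposited scale. After scaling its H3K9me2 difference was -0.29 (limma adjusted p = 0.00113).

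Markers of other heart cells were few among giants. Of 14 genes in a list for endothelial cells, fibroblasts and mural cells, 6 were giants (Mecom, Ptprm, Rbms3, Gpc6, Slit3 and Lpp). Their median log2 ratios were -0.34 (G9a), 0.02 (H3K9me2), -0.38 (H3K27me3) and -0.28 (Mef2c). Of 31 regulators of transcription, 14 were giants, with medians of -0.23, 0.02, -0.21 and -0.22, beside the medians of all giants given above. Their median H3K27me3 density was 56.2 regions per Mb, between the heart and synaptic lists. The regulators share members with the heart list, Sox6 and Esrrg among them, so these are not separate groups.

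On the deposited scale, most windows within giants had the direction of the list as a whole. In windows of 50 kb with at least 5 listed regions, 80.5% of 3349 G9a windows, 87.5% of 2417 H3K27me3 windows and 80.2% of 3518 Mef2c windows had a ratio below 0, as had 26.0% of 3632 H3K9me2 windows. All such windows were lower in 36 of 212 giants for G9a, in 42 of 166 for H3K27me3 and in 21 of 215 for Mef2c, and all were higher in 19 of 216 for H3K9me2. The SD of the log2 ratio over the windows of a giant had a median of 0.34, 0.32, 0.36 and 0.29 for the same 4 targets, which is about the size of the ratios themselves. The median window ratio was -0.32 (G9a), -0.43 (H3K27me3), -0.32 (Mef2c) and 0.22 (H3K9me2). Scaling shifts these by 0.33, 0.28, 0.33 and -0.30, so the shares of windows depend on the scale. Windows outside giants were not counted.

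Position from the start made little difference. In the 169 giants with a known strand, the summed H3K27me3 log2 ratio was -0.39, -0.40, -0.40, -0.41 and -0.40 over 5 equal stretches from the start to the end of the gene. For G9a it ran between -0.34 and -0.30, for H3K9me2 between 0.21 and 0.23, and for Mef2c between -0.36 and -0.30. The first stretch held 21.5% of the H3K27me3 regions, the most of the 5.

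Along 4 genes, chosen after their values were seen, windows differed in size and, for H3K9me2, in direction. In Erc2 all 17 windows were lower for G9a, from -1.30 in the first 50 kb to -0.24 at 200 kb from the start, while H3K9me2 was lower in 10 and higher in 7. In Nrxn3, 28 of 31 windows were lower for H3K27me3. In Fgf12 all 12 windows were lower for H3K27me3 and for Mef2c, and H3K9me2 went from -0.47 at 100 kb to 0.90 at 400 kb. In Pde4d, 12 of 13 H3K27me3 windows were lower, and G9a windows fell on both sides of 0 (9 lower, 7 higher).

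**Figure D4:**
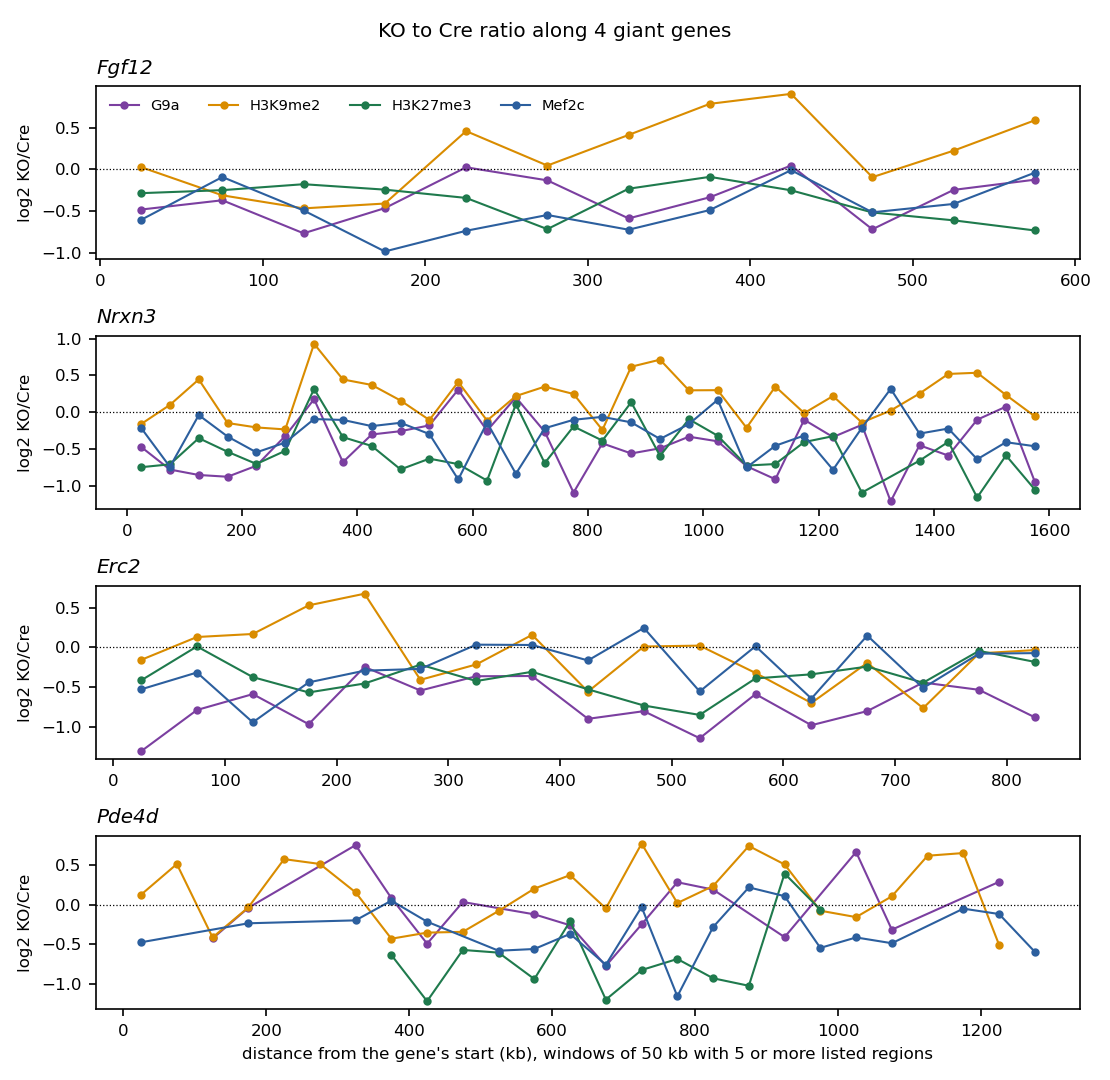
Log2 of summed KO over summed Cre values in windows of 50 kb along Fgf12, Nrxn3, Erc2 and Pde4d, by distance from the start of the gene in kb, for windows with 5 or more listed regions, 1 colour per target. H3K27me3 lies below 0 in 12 of 12 windows of Fgf12, 28 of 31 of Nrxn3, 16 of 17 of Erc2 and 12 of 13 of Pde4d on the deposited scale. Scaling moves these points by 0.28 and those of G9a, H3K9me2 and Mef2c by 0.33, -0.30 and 0.33, which turns those near 0.

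Wide regions were lower more often than narrow ones. Of the 473 H3K27me3 members of 3 kb or more, 454 were lower in KO (96.0%), against 90.6% of all 12153 listed regions of that width. Of those under 0.5 kb, 58.2% were lower, and 57.4% in the whole list. For G9a the share was 63.3% under 0.5 kb, 60.1% at 0.5 to 1 kb and 82.0% at 2 to 3 kb (239 members), near the 61.6%, 58.8% and 80.2% of the whole list. For H3K9me2 the shares ran the other way, with 39.7% lower under 0.5 kb and 22.9% of 35 members at 3 kb or more, against 12.7% of the list at that width. The widest member, 12300 bases in Asic2 (chr11:81187651-81199950), had H3K27me3 values of 4554 and 4105 in Cre against 3222 and 1787 in KO, as the authors' deposited list gives them. In Pde4d and Fgf12, all 4 regions of 3 kb or more in each gene were lower.

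Of 117 start windows inside giants, 53 met a listed H3K27me3 region (45.3%), 40 a G9a (34.2%), 39 an H3K9me2 (33.3%) and 35 a Mef2c region (29.9%). Of the 154 other start windows of giants, 64.3% met an H3K27me3, 34.4% a G9a, 31.8% an H3K9me2 and 39.0% a Mef2c region. The 50 H3K27me3 regions there were divided evenly, 25 lower and 25 higher, whereas 65.4% of all members and 55.3% of H3K27me3 regions over all gene starts were lower. For G9a, 27 of 37 regions over internal starts were lower (73.0%, against 62.6% of members), for Mef2c 65.7% of 35 (61.9%) and for H3K9me2 47.5% of 40 (40.8%). Over all gene starts, 65.4% of G9a, 64.8% of Mef2c and 38.5% of H3K9me2 regions were lower. At starts with 15 or more CG in the window, 6 of 15 H3K27me3 regions were lower (40.0%), and at starts with fewer, 19 of 35 (54.3%). In the whole H3K27me3 list, 37.0% of 1967 regions at CG-rich starts and 64.3% of 3873 at other starts were lower. With 15 and 35 regions in giants, no difference from the whole list was tested. The H3K27me3 values had a median of 723 per kb over CG-rich internal starts and 148 over all members. Over CG-rich starts of the whole list it was 419, so denser values at such starts were not particular to giants. Neighbouring starts can share a region, so these are not independent.

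**Figure D5:**
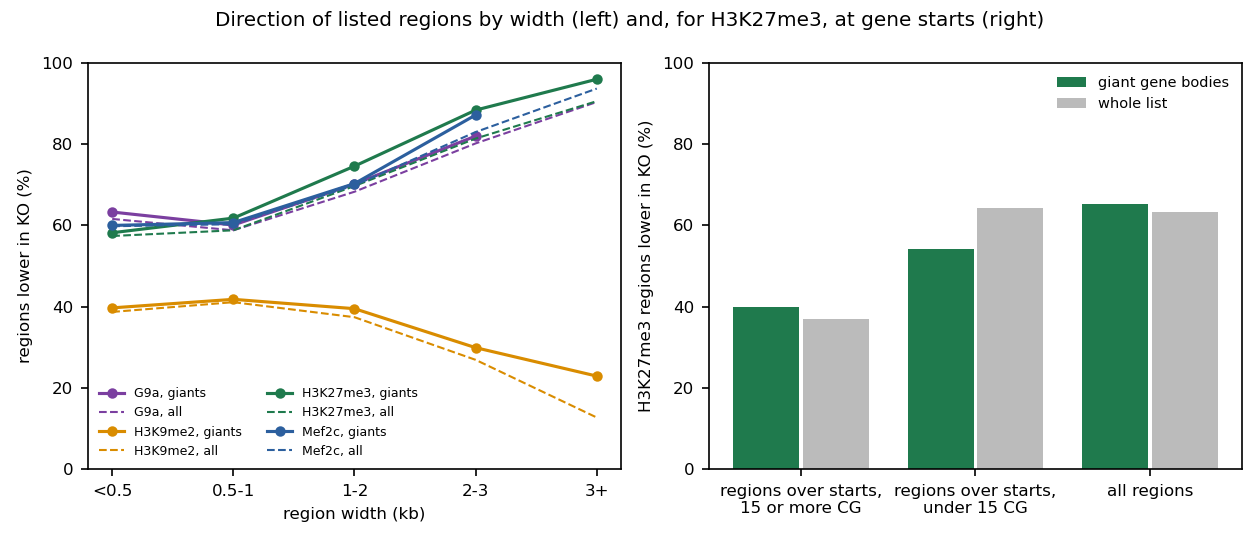
Left, percent of listed regions lower in KO by width in kb, for giant bodies (points and solid lines, classes with 20 or more members) and the whole list (dashed). Right, percent of H3K27me3 regions lower in KO over start windows with 15 or more or fewer CG and over all regions, with green bars for giant bodies and grey for the whole list. The share of H3K27me3 members that are lower rises from 58.2% to 96.0% with width, and is 40.0% at CG-rich internal starts against 65.4% over all members.

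The Fgf12 start printed first, 306.9 kb from the start of the gene, lay under an H3K27me3 region with 1845 and 1591 in Cre against 2182 and 2753 in KO (log2 ratio 0.52). A Mef2c region over the same start fell from 207 and 410 in Cre to 21 and 60 in KO (-2.90), and its values did not overlap. The Fgf12 start 188.0 kb from the start of the gene, with 34 CG, was lower for H3K27me3 (2082 and 2210 in Cre, 1291 and 1940 in KO), for G9a (231 and 319, then 148 and 90) and for H3K9me2 (464 and 283, then 181 and 146). So the 2 starts differed in the direction of H3K27me3 within 1 gene.

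At the Dab1 start, in a gene for a reelin signalling adaptor, H3K27me3 was 1685 and 1660 in Cre against 2195 and 3041 in KO (0.65), while 313 of the 505 H3K27me3 regions of that body were lower. At the Celf2 start, in a gene for an RNA-binding protein of heart and brain, it went from 7 and 15 in Cre to 108 and 102 in KO (3.14). Each pair of KO values was above both Cre values.

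The other 3 printed starts were picked for lower H3K27me3 values, so their direction is no pattern of starts with few CG, of which 19 regions were lower and 16 higher. Over the Kcnip4 start a region of 4450 bases had 1509 and 1049 in Cre against 724 and 784 in KO (-0.76). Over the Nlgn1 start the values were 919 and 757 in Cre against 563 and 523 in KO (-0.63). Cdh18, a type II cadherin, had 952 and 955 in Cre against 783 and 562 in KO for H3K27me3 (-0.50), and its Mef2c region fell from 427 and 608 to 190 and 126 (-1.71).

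Of 26 microRNA hairpins inside 22 giants, 19 met a listed region of any target. This number has no background, because other positions in giant bodies were not counted. The regions covered a median of 15.6% (G9a), 23.2% (H3K9me2), 12.5% (H3K27me3) and 14.8% (Mef2c) of a giant body. The hairpins of miR-873a and miR-873b in Lingo2 share their coordinates and their H3K9me2 region, so the 19 are not independent. The hairpin of miR-346 lies in Grid1, a delta-type glutamate receptor gene, under an H3K27me3 region of 9900 bases with 4461 and 4528 in Cre against 3251 and 2328 in KO (-0.69), and under a G9a region with 313 and 412 in Cre against 152 and 46 in KO (-1.86). That of miR-204, in the channel gene Trpm3, met an H3K9me2 region that was higher (57 and 105 in Cre, 163 and 168 in KO, 1.02) and an H3K27me3 region that was lower (232 and 263, then 76 and 175, -0.97). Its G9a region had 173 and 111 in Cre against 102 and 88 in KO (-0.57). In none of these regions did the groups overlap.

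The hairpin of miR-218-5p in Slit3, an axon guidance ligand gene, met a Mef2c region with 65 and 88 in Cre against 201 and 184 in KO (1.32), and a G9a region whose values overlapped (156 and 11 in Cre against 149 and 369 in KO, 1.62). That of miR-153-3p in Ptprn2, a secretory granule protein gene, met an H3K27me3 region with 147 and 195 in Cre against 331 and 199 in KO (0.63), and a Mef2c region with the opposite sign, whose values overlapped (323 and 190 in Cre against 198 and 84 in KO, -0.86). Over miR-582-5p in Pde4d the H3K27me3 values overlapped (119 and 257 in Cre, 173 and 88 in KO). Over miR-21b in Egfem1 the Mef2c values fell from 321 and 325 to 34 and 132 (-1.95) and the G9a values from 214 and 106 to 73 and 39 (-1.50), with no overlap, while the H3K9me2 values overlapped (10 and 198 in Cre against 63 and 67 in KO, -0.67). No miRNA level was measured.

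The single members with the highest −log10 p were taken from the authors' deposited lists. For G9a in those lists, a region in Syt1, the calcium sensor of transmitter release (chr10:108609801-108611100), had 474 and 265 in Cre against 14 and 21 in KO (log2 ratio -4.32, −log10 p 82.9), and one in B3galt1, a galactosyltransferase gene (chr2:67757951-67758700), 12 and 9 in Cre against 109 and 354 in KO (4.34). For H3K9me2 in the authors' deposited list, Kirrel3 had the strongest fall (chr9:34702701-34704750, 430 and 637 in Cre, 115 and 41 in KO) and Csmd3 the strongest rise (chr15:47699851-47702850, 66 and 245 in Cre, 724 and 756 in KO). For H3K27me3 there, the strongest fall was in Dlgap2 (chr8:14147001-14156300, 2759 and 3396 in Cre, 1622 and 1321 in KO) and the strongest rise in the heart giant Sox6 (chr7:115527451-115529050, 29 and 45 in Cre, 216 and 641 in KO). For Mef2c it was Dlgap1 (chr17:70503951-70505700, 540 and 385 in Cre, 20 and 91 in KO) and Unc5d, a netrin receptor (chr8:28880951-28881850, 4 and 46 in Cre, 289 and 282 in KO). In all 8 the KO and Cre values did not overlap, which their choice by p favours.

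The regions of different targets overlapped at many places, for some pairs less often in giants than in the whole lists; these shares were not tested. Of G9a members, 52.8% overlapped an H3K9me2 region by at least 1 base (49.3% in the whole list), 40.1% an H3K27me3 region (45.8%) and 39.1% a Mef2c region (39.4%). Seen from the other lists, 37.2% of H3K9me2, 45.5% of H3K27me3 and 39.7% of Mef2c members overlapped a G9a region, against 43.1%, 53.4% and 45.3% of the whole lists. Where G9a and H3K27me3 regions overlapped in giants, 62.9% went the same way (61.5% in the whole list), and where G9a and H3K9me2 overlapped, 54.8% did (54.7%). Across the 216 giants the log2 ratios of G9a and Mef2c had Pearson's r = 0.55, those of G9a and H3K27me3 0.52, and those of G9a and H3K9me2 0.07 (Spearman's rho 0.56, 0.53 and 0.06). These are descriptions over genes, and the densities of the same targets correlated at r = 0.83, 0.84 and 0.66.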

How the data were processed

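ChIP-seq of G9a, H3K9me2, H3K27me3 and Mef2c was deposited as 4 region lists, 1 per target, each comparing 2 KO with 2 Cre libraries. BWA 0.7.10-r789, SAMtools 1.1 and the mm10 build are named by the submitters' processing notes. The text cell that the authors deposited for each region holds 4 values and a −log10 p of their comparison. The region caller, scale, normalization and any input correction were not given in the sources used here. The values were not treated as counts. Their order (Cre first) follows the list names and labels, and they carry no replicate number. The series text names H3K27me2 once, where title and labels name H3K27me3, which was used. Depth is unknown.

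Gene spans, start windows and microRNAs are RefSeq's (GRCm38.p6); 169 of 216 giants had a start window and strand. Members and gene lists were chosen with earlier results of these data known. Values were summed per gene body. limma 3.58.1 (R 4.3.3; trend, log2 of value plus 1, Benjamini-Hochberg adjustment at 0.05) was fitted per target over all regions and over all gene bodies. The fit was also run on simulated gene-body values with known scale, larger changes than in most giants and no selection of regions. That run shows that the code works and does not bear on the calls reported here. p-values measure the spread between these samples. Tables were made with Python 3.11.15 and pandas 2.3.3.

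Named genes were the heart giants and 15 listed synaptic giants (some are not reported here), the 3 lowest and 3 highest ratios per target among giants with at least 20 regions, the strongest member region per target and direction, giants that moved the same way for all 4 targets, and up to 10 giants per target with the smallest p among those past limma. Printed starts, microRNAs, profiles and densities were chosen after their values were seen. Alternatives were leaving out each value, median scaling, a value filter, another pseudocount, a stricter −log10 p and a length of 1 Mb.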

Additional observations from a re-analysis of the deposited data

How the results depend on the processing

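No paired analysis was possible because the deposited values carry no replicate number, so no replicate block was fitted. Values are given below in the order G9a, H3K9me2, H3K27me3 and Mef2c. Leaving out 1 value at a time gave 0 to 3899 G9a member regions past limma and 0 for the other targets, and 0 to 14, 0 to 108, 0 to 161 and 0 to 174 giants. The share of members lower in KO ran from 60.8% to 64%, 37.6% to 42.5%, 63.7% to 67.4% and 59.8% to 64.3%. The median log2 ratio ran from -0.35 to -0.23, 0.10 to 0.31, -0.46 to -0.30 and -0.41 to -0.22, and heart minus synaptic from 0.15 to 0.37, -0.24 to -0.10, 0.43 to 0.63 and 0.11 to 0.23. Where 1 genotype keeps 1 value, that value is assumed to vary like the others. In the fits with the highest counts of giants, more of all gene bodies passed as well than in the full fit. Counts from fits with 1 value in a genotype are therefore not used as evidence about giants.

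Scaling to the same median gave median log2 ratios of 0.03, -0.09, -0.09 and 0.02, and 0 giants past limma for G9a, H3K27me3 and Mef2c. For H3K9me2 it gave 60 (27.8%, against 5.04% of all gene bodies), most of them lower, where the deposited scale gave only higher calls. The medians made equal are those of regions that differed, so scaling takes out much of the net change of a list. A minimum −log10 p of 10 in the authors' deposited lists gave shares of 74%, 30.1%, 80% and 73.8%, and medians of -0.74, 0.54, -0.77 and -0.79. It gave heart minus synaptic differences of 0.56 (G9a), 0.81 (H3K27me3) and 0.43 (Mef2c). Past limma were 123 giants for H3K9me2 (56.9%, against 23.7% of all gene bodies) and 170 for Mef2c (78.7%, against 31.4%). Regions kept by this minimum were chosen for the difference between these same KO and Cre values. Larger ratios and more calls are favoured by that choice, so they lend the main results no weight. With genes of 1 Mb or more the Mef2c heart minus synaptic difference was 0.04. The cause was not tested. A minimum mean value of 20 removed no region, since the smallest mean was 36.75. Unknown depth limits every value, and a list of regions chosen for their difference cannot show where signal did not change.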
